A study of Rattus norvegicus with 24 samples.

Results

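The comparison described here is the change of the monocrotaline (MCT) effect on lung RNA between Week 1 and Week 3. It is the interaction in the counts table, the MCT minus PBS difference of Week 3 less the MCT minus PBS difference of Week 1. Its members are 16 of the 24 libraries of the series, replicates 1 to 4 of each of 4 groups, and 14 of them when PBS replicates 1 and 3 of Week 1, which hold the fewest counts, are left out. The groups were MCT rats and PBS rats on day 21 (Week 3) and MCT rats and PBS rats on day 7 (Week 1), with 4 libraries each. All were male rats of the SD (Sprague-Dawley) strain with the genotype WT. MCT rats had received a single intraperitoneal injection of monocrotaline at 50 mg per kg, and PBS rats the buffer alone. Each library came from the lung of a different rat, perfused with buffer to remove blood, so the 2 weeks are different animals and not the same animals followed over time. The samples are whole lung, which mixes all cell types of the organ.

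Monocrotaline is a plant alkaloid that the liver turns into a reactive pyrrole, which reaches the lung with the blood and injures the endothelium of its vessels. In rats the injury is followed by a wave of repair and cell division, by inflammation, and over weeks by thickened small arteries and raised pulmonary pressure. An interaction asks whether a gene's response differed between an early and a late stage: a negative value means that the ratio of MCT to PBS was lower in Week 3 than in Week 1, a positive value that it was higher.

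Total counts were 28357609 to 32835200 in 14 of the 16 libraries and 19804731 and 20509197 in PBS replicates 1 and 3 of Week 1. Genes with at least 10 counts numbered 15614 to 16428 in the 14 libraries and 14706 and 12491 in that pair. The pair differed in more than depth. Mitochondrially encoded transcripts made up 3.1% to 5.41% of counts in the 14 libraries and 2.94% and 0.942% in the pair. The standard deviation of a library's log2 deviations from the median of its week was 0.292 to 0.63 in the 14 and 0.986 and 1.33 in the pair. The share of haemoglobin transcripts differed between groups, and blood content itself was not measured. They made up 0.0174% to 0.0524% of counts in MCT rats and 0.00887% to 0.0839% in PBS rats of Week 3. In Week 1 they made up 0.0561% to 0.233% in MCT rats and 0.441% to 0.954% in PBS rats. The PBS rats of Week 1 had the highest shares in all 4 libraries, the deeper ones included. Lung markers were high in every group: Sftpa1, a surfactant protein of alveolar type 2 cells, averaged 8862 and 5897 CPM (counts scaled to library size) in MCT and PBS rats of Week 3 and 5668 and 7193 CPM in those of Week 1.

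With all 24 libraries in the fit, the interaction was called at an adjusted p under 0.05 in the quasi-likelihood test of edgeR, adjusted by Benjamini and Hochberg's method, for 754 of 17206 genes (4.38%). Of these, 322 were positive (1.87% of the genes tested) and 432 negative (2.51%), and 3601 genes (20.9%) had an unadjusted p under 0.05. Without the 2 shallow libraries, 4086 of 17940 genes (22.8%) were called, 1845 positive (10.3%) and 2241 negative (12.5%). Called with the same sign in both fits were 290 genes positive (1.69%) and 431 negative (2.5%), together 721 (4.19%), and no gene (0%) was called with opposite signs. RLE in place of TMM scaling of all 24 libraries gave 422 positive and 355 negative genes, which moved the positive share of calls to 54.3% from 42.7%, so the balance of directions depends on the scaling. It moved the median interaction of all genes by 0.0954 on the log2 scale.

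**Figure D1:**
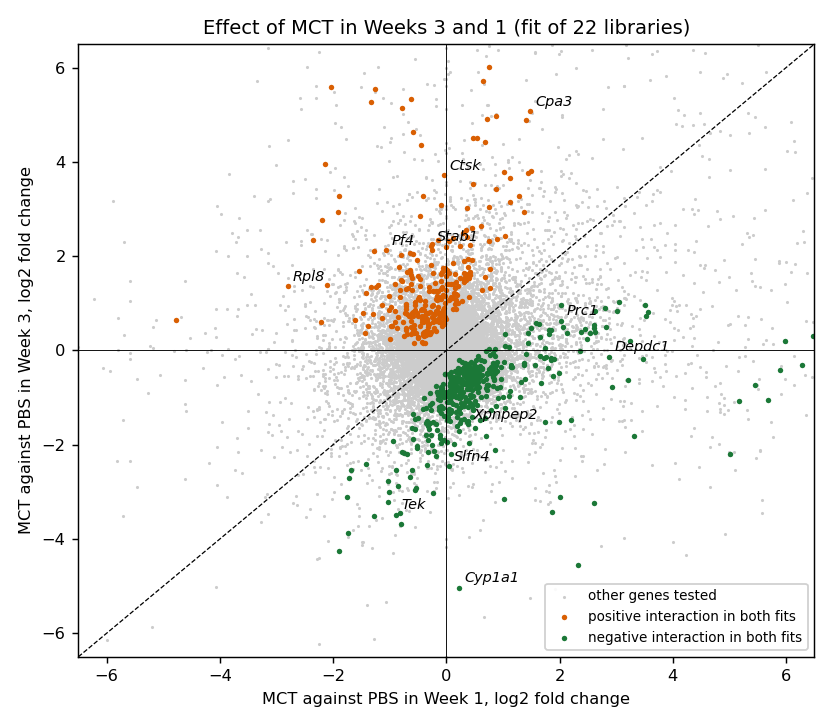
Each point is 1 gene in the fit of 22 libraries, with the log2 fold change of MCT against PBS in Week 1 on the x axis and in Week 3 on the y axis. Orange points are the 290 genes with a positive and green points the 431 genes with a negative interaction in both fits, grey points are the other genes tested, the dashed line marks equal effects, and 66 genes lie outside the axes. Cyp1a1 lies at -5.04 in Week 3 and near 0 in Week 1, and Depdc1 near 0 in Week 3 and at 2.87 in Week 1.

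A single library set most of the difference between these counts. Leaving out PBS replicate 3 of Week 1 alone gave 2419 positive and 2336 negative genes, and leaving out PBS replicate 1 alone gave 372 and 572. Leaving out PBS replicate 4 of Week 1 gave 597 and 725, and the counts without any other single library lay between 104 and 372 positive and between 214 and 572 negative genes. Without the pair, Week 1 rests on 2 PBS libraries, and a further loss of PBS replicate 2 gave 322 positive and 518 negative genes. With the 16 libraries of the 4 groups alone the counts were 45 and 102, and with 14 of them 1066 and 1121.

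**Figure D2:**
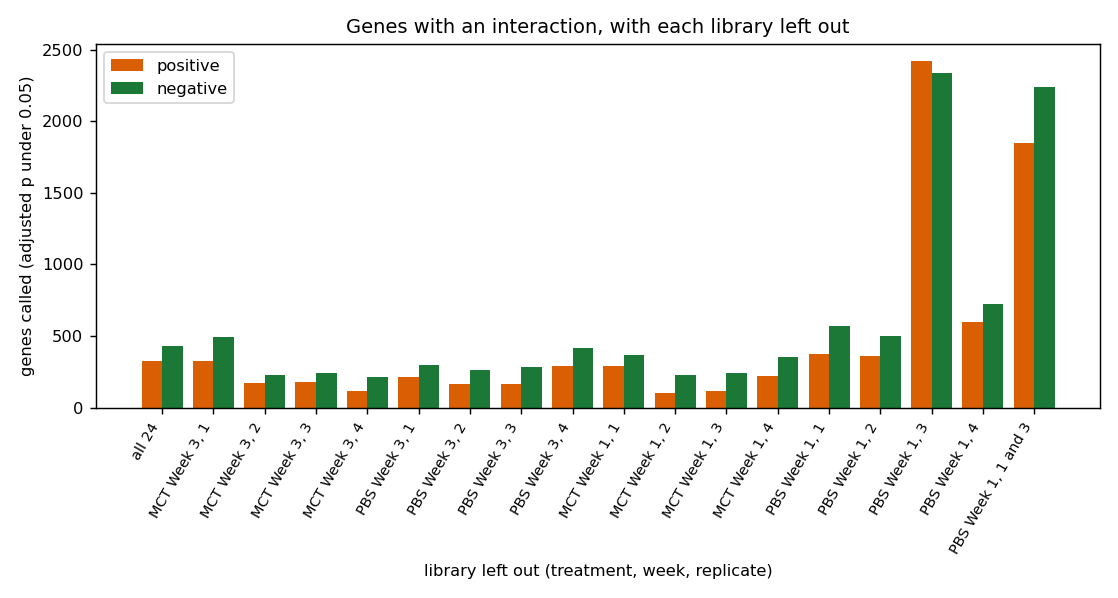
Bars give the number of genes called positive (orange) or negative (green) with all 24 libraries, with each of the 16 libraries left out in turn (named by treatment, week and replicate) and with PBS replicates 1 and 3 of Week 1 left out together. The counts stand at 322 and 432 with all libraries and reach at least 1845 in either direction only without PBS replicate 3 of Week 1, alone or together with replicate 1.

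Most of the genes called in both fits had an effect that was called in Week 3 and not in Week 1. In the fit of 22 libraries, 335 of the 431 genes with a negative interaction in both fits were lower in MCT than in PBS rats in Week 3 (77.7%, against 15.7% of all genes tested), and 269 of them had no called effect in Week 1. Another 67 were higher in MCT rats in Week 1 only, 48 were higher in Week 1 and lower in Week 3, and 15 were higher in both weeks. Of the 290 genes with a positive interaction, 262 were higher in MCT rats in Week 3 (90.3%, against 16.7% of all), and 231 of these had no called effect in Week 1. A missing call is not a missing effect. Whether called or not, the effects of the 2 weeks had opposite signs for 306 of the 431 negative genes (71%). The same held for 206 of the 290 positive genes (71%). These shares are a description of how the interaction is made up, since the 2 effects and the interaction share their libraries. A gene can also have an interaction because the PBS rats of the 2 weeks differed. The MCT rats changed more between weeks than the PBS rats for 326 of the 431 negative genes (75.6%) and for 173 of the 290 positive genes (59.7%), against 46.9% of all genes tested. Over all genes called without the pair the shares were lower, 53.1% of 2241 negative and 44.8% of 1845 positive genes. With all libraries they were 70.6% of 432 negative and 51.9% of 322 positive genes, against 48% of all genes tested in that fit. Median gene length was 2042 bases for the positive, 2895 for the negative and 2136 for all genes tested. In Week 3 the rank correlation of a library's deviations with gene length lay between -0.214 and -0.0828 in the MCT libraries and between 0.0877 and 0.151 in the PBS libraries, so length trends moved with treatment in that week. In Week 1 it lay between -0.246 and 0.221 in the MCT libraries and between -0.452 and 0.295 in the PBS libraries, with both signs in each group. The part of length trends in the result was not tested.

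Mitotic and G2/M genes held the largest number of negative calls of the lists in both fits. Of 76 members tested (83 listed), 29 had a negative interaction with all libraries and 61 without the 2 shallow ones, and none had a positive one. The same 29 were called in both fits. For the counts of called members here and below, 1.87% of all genes tested were positive and 2.51% negative with all libraries. Without the pair these shares were 10.3% and 12.5%. Of the 3275 genes with a symbol, 163 were positive and 329 negative with all libraries, and 480 and 1055 without the pair. List members could come only from these 3275. The shares beside effects of a week and changes between weeks, here and below, are of all genes tested and were not counted for these alone. With all libraries the count of negative mitotic members was 18 without MCT replicate 2 and 61 without PBS replicate 3 of Week 1. It was 10 with the libraries of the 4 groups only and 19 with a replicate block within week. For the 47 endothelial markers below, these counts were 12 and 14. The median interaction of the mitotic members was -1.27 and -1.80 on the log2 scale (0.04 and -0.02 over all genes). All 76 were higher in MCT than in PBS rats in Week 1 in the fit of 22 libraries (5.46% of all genes tested), at a median log2 fold change of 2.15, and 38 were still higher in Week 3 (16.7% of all), at a median of 0.55. Summed over the list, the MCT libraries held 1277 to 1424 CPM in Week 3 and 3475 to 4490 CPM in Week 1, and the PBS libraries 802 to 1331 CPM in Week 3 and 889.9 to 1610 CPM in Week 1. The difference between weeks thus lay in the MCT rats: 73 of the 76 fell between Week 1 and Week 3 among MCT rats (13.4% of all genes tested), against 5 that rose (5.95% of all) and 5 that fell (7.16% of all) among PBS rats. Gene symbols came from a table in which the study listed mostly genes it had called changed in these samples, so the direction of list members here and below is not independent evidence.

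Prc1, which bundles microtubules at the spindle midzone so that a cell can divide, lies at chr1:142087208-142108746 of Rnor_6.0 and had the smallest adjusted p of the named genes whose effect shrank. It measured 48.0, 50.8, 43.7 and 43.4 CPM in the MCT rats of Week 3, against 30.7, 28.8, 27.2 and 33.3 CPM in the PBS rats of that week. Its Week 1 values were 143.2, 152.1, 127.4 and 136.7 CPM in MCT rats, against 38.2, 36.9, 41.6 and 32.998 CPM in PBS rats. MCT lay above PBS without overlap in both weeks, by a much smaller margin in Week 3. The interaction was -1.27 ± 0.16 (log2, standard error, adjusted p = 0.000323) with all libraries and -1.40 ± 0.15 (adjusted p = 1.41e-05) without the pair.

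Top2a, the topoisomerase that untangles chromosomes before they separate, measured 69.0, 58.3, 61.4 and 57.1 CPM in MCT rats and 67.5, 36.6, 35.0 and 50.4 CPM in PBS rats of Week 3. The values of Week 1 were 220.8, 303.7, 216.6 and 198.0 CPM in MCT rats and 39.0, 37.9, 114.3 and 44.5 CPM in PBS rats. The groups overlapped in Week 3 and were apart in Week 1, where PBS replicate 3 was the highest of its group. The interaction was -1.62 (adjusted p = 0.0196), and -2.16 (adjusted p = 8.32e-05) without the pair, and the call with all libraries was lost without MCT replicate 2 of Week 1. Cenpe, a kinesin of the centromere, had an interaction of -1.48 that missed the threshold with all libraries (adjusted p = 0.0515) and of -2.29 without the pair (adjusted p = 8.32e-05).

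Depdc1, which is active in dividing cells, averaged 6.28 ± 2.20 and 6.86 ± 4.18 CPM in MCT and PBS rats of Week 3 (SD, n = 4 each) and 29.3 ± 2.39 and 4.92 ± 1.499 CPM in those of Week 1. Its MCT and PBS values overlapped in Week 3, and its interaction was -2.71 ± 0.45 (adjusted p = 0.00258). Spc25, a subunit of the Ndc80 kinetochore complex, averaged 5.62 and 7.32 CPM in Week 3 and 23.7 and 5.32 CPM in Week 1 in MCT and PBS rats, with an interaction of -2.53. Plk4, the kinase that starts centriole duplication, averaged 14.0 and 14.1 CPM in Week 3 and 39.1 and 9.92 CPM in Week 1, with an interaction of -1.99. Ndc80 itself had -2.23, and Sgo2, which guards the cohesion of sister chromatids, -2.41. These 5 genes were called in both fits. The call of Sgo2 with all libraries was lost without any 1 of 3 libraries. With the libraries of the 4 groups only, Plk4, Ndc80 and Sgo2 lost that call, and Depdc1 and Spc25 kept it.

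**Figure D3:**
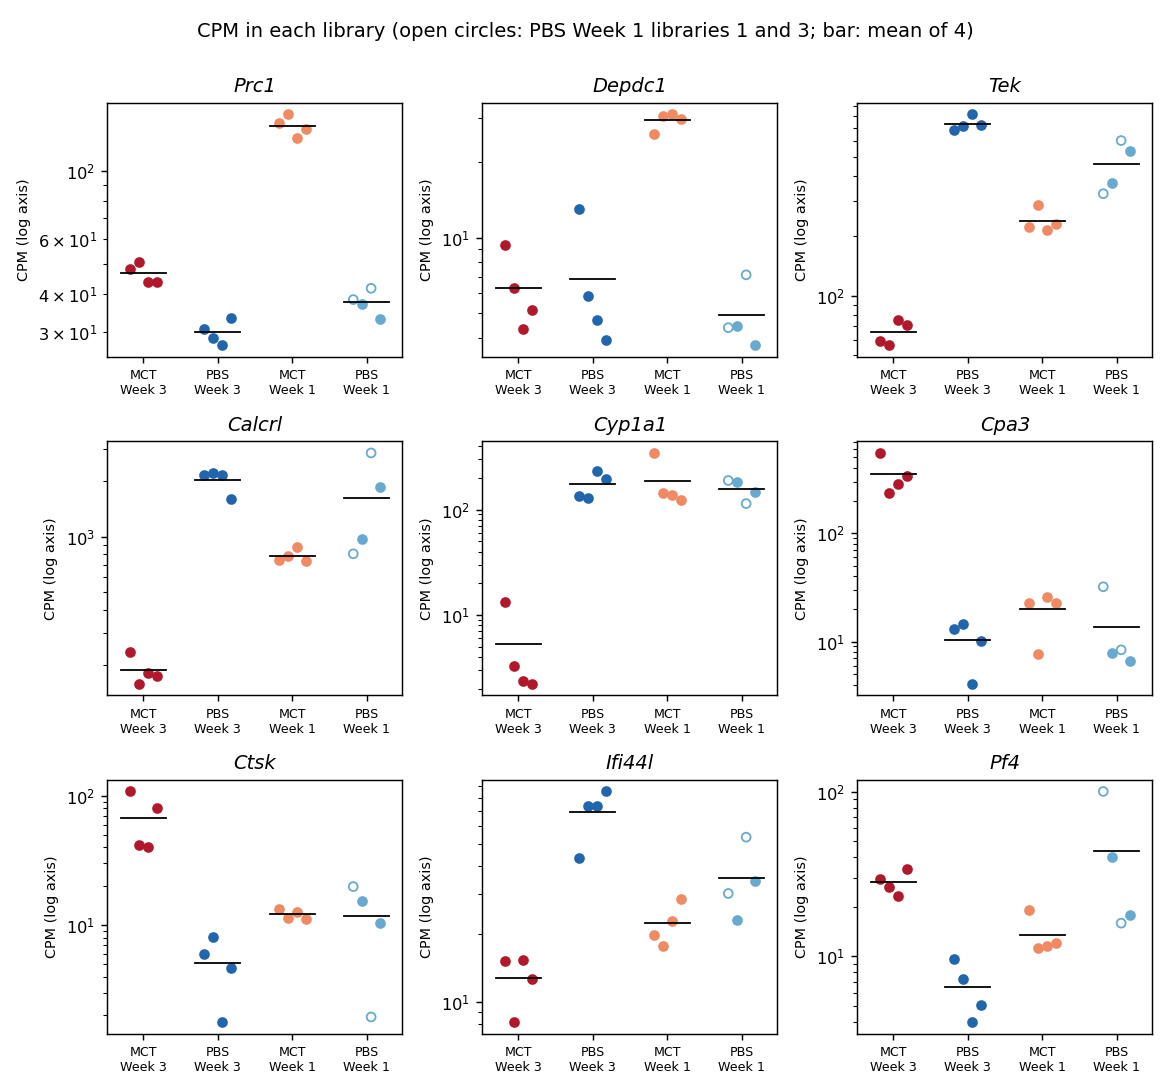
Each point is 1 library, with CPM on a log axis, for MCT and PBS rats of Week 3 and MCT and PBS rats of Week 1, left to right. Bars are means of 4 libraries and open circles are PBS replicates 1 and 3 of Week 1. Prc1 and Depdc1 stand highest in MCT rats of Week 1, Tek, Calcrl and Cyp1a1 lowest and Cpa3 and Ctsk highest in MCT rats of Week 3, Ifi44l highest in PBS rats of Week 3 apart from 1 overlapping value, and Pf4 highest in 2 PBS libraries of Week 1.

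Promoters of mitotic genes often hold a cell cycle homology region (CHR, written TTTGAA or TTCGAA) and CCAAT boxes, elements known from mammalian G2/M genes. A RefSeq promoter (GRCr8) was matched for 67 of the 76 members. In the 250 bases before the start, on either strand, 33 of 67 held a CHR (49.3%, against 17.4% of 33469 RefSeq promoters), 41 held CCAAT (61.2%, against 34%) and 26 both (38.8%, against 6.31%). Among the 25 matched members called in both fits, 11 held a CHR (44%), and among the other 42 members 22 did (52.4%). The 150 bases before the start of 6 members are shown to make the arrangement visible, chosen as those called in both fits with both motifs in this window and the most negative interactions. The motifs, or their reverse complements TTCAAA and ATTGG, stand in capitals.
Spc25 (chr3:74396719-74396868, minus strand): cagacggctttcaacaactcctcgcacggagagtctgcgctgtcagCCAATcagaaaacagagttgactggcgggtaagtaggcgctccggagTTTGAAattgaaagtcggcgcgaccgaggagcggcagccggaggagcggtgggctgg
Hmmr (chr10:25665216-25665365, minus strand): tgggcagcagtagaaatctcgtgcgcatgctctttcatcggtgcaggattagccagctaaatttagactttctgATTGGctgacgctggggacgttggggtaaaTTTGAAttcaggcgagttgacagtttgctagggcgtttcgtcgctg
Smc4 (chr2:155550112-155550261, plus strand): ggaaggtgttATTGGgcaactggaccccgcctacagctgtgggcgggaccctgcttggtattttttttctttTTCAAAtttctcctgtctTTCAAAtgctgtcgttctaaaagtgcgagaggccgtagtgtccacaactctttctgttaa
Mki67 (chr1:199952594-199952743, minus strand): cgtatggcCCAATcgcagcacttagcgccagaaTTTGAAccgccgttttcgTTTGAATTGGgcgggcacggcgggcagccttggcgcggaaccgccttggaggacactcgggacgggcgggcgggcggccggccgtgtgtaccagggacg
Kif23 (chr8:71320585-71320734, minus strand): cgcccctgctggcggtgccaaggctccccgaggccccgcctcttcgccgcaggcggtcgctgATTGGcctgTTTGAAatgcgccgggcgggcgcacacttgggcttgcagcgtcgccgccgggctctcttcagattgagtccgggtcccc
Top2a (chr10:84473094-84473243, minus strand): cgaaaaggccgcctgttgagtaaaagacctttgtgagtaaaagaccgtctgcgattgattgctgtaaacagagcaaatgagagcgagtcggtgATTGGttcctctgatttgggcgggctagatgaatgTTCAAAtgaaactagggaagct
In Mki67 a CHR and a CCAAT on the other strand share bases. A match describes the letters only, and no binding was measured.

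Genes of DNA replication and S phase followed with smaller values. Of 42 members tested (51 listed), 7 had a negative interaction with all libraries and 29 without the pair, and none a positive one, at medians of -0.74 and -1.08. Without the pair, 14 were higher (16.7% of all genes tested) and 2 lower (15.7%) in MCT rats in Week 3, and 35 were higher in Week 1 (5.46%). The count with all libraries was 23 without PBS replicate 3 of Week 1, and the count without the pair was 11 when PBS replicate 2 was left out too. Pclaf, a partner of the sliding clamp PCNA, averaged 6.60 and 5.72 CPM in MCT and PBS rats of Week 3 and 24.5 and 3.92 CPM in those of Week 1, with an interaction of -2.44. Uhrf1, which maintains DNA methylation after replication, had -1.95, Ccne2, a cyclin of the G1/S transition, -1.71, and Gmnn, the licensing inhibitor geminin, -1.70.

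Of 15 targets of p53 (21 listed), 2 had a negative interaction with all libraries, and 6 a negative and 2 a positive one without the pair. These counts were near the shares of all genes with a symbol. Of those 3275 genes, 329 were negative with all libraries, and 1055 negative and 480 positive without the pair. In the fit of 22 libraries 8 were higher in MCT rats in Week 3 (16.7% of all genes tested), and 10 were higher (5.46%) and 1 lower (4.15%) in Week 1. The negative count with all libraries was 1 without MCT replicate 3 of Week 1 and 5 without PBS replicate 3 of Week 1. Mdm2, the ligase that degrades p53, measured 110.3, 92.5, 73.9 and 77.8 CPM in MCT rats and 78.5, 80.6, 80.0 and 75.8 CPM in PBS rats of Week 3. Week 1 gave 156.2, 186.7, 165.9 and 191.8 CPM in MCT rats, against 47.1, 66.2, 88.3 and 64.9 CPM in PBS rats. The groups overlapped in Week 3 and were apart in Week 1, and the interaction was -1.22 ± 0.23 (adjusted p = 0.00492). Fas, a death receptor, had -1.23, a call lost without any 1 of 5 libraries.

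Endothelial genes lay far below PBS in Week 3 and little below it in Week 1. Of 47 pan-endothelial and capillary markers tested (57 listed), 18 had a negative interaction with all libraries and 30 negative and 1 positive without the pair, at medians of -0.96 and -0.97. Without the pair, 41 were lower in MCT rats in Week 3 (15.7% of all genes tested) and 19 in Week 1 (4.15%), with median log2 fold changes of -1.16 and -0.29, while 4 were higher in each week. Summed over the list, the MCT libraries held 9043 to 9666 CPM and the PBS libraries 23410 to 26110 CPM in Week 3, and the MCT libraries 17080 to 19630 CPM and the PBS libraries 16430 to 29270 CPM in Week 1. The decrease between weeks lay in the MCT rats, where 43 of 47 fell (13.4% of all genes tested) and 1 rose (10.9%). Among PBS rats 4 fell (7.16%) and 1 rose (5.95%). The count with all libraries was 32 without PBS replicate 3 of Week 1, and the count without the pair was 19 when PBS replicate 2 was left out too. In whole lung, fewer endothelial cells and less RNA per endothelial cell cannot be told apart, and the same holds for every cell type below.

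Tek, the angiopoietin receptor Tie2 of endothelial cells, lies at chr5:113725717-113852799 of Rnor_6.0 and had the smallest adjusted p of the named genes without the pair. It measured 59.3, 56.3, 75.1 and 70.8 CPM in the MCT rats of Week 3, against 682.4, 712.6, 818.2 and 723.5 CPM in PBS rats. In Week 1 it measured 222.8, 286.2, 215.4 and 229.2 CPM in MCT rats, against 326.3, 369.9, 604.2 and 532.7 CPM in PBS rats. MCT lay below PBS without overlap in both weeks, and the gap was far wider in Week 3. The interaction was -2.55 ± 0.23 (adjusted p = 1.92e-06), and -2.59 ± 0.21 without the pair (adjusted p = 5.88e-07), and the call held with each of the 16 libraries left out in turn.

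Calcrl, the receptor that binds adrenomedullin with its RAMP partners, measured 235.9, 158.3, 181.5 and 174.9 CPM in MCT rats and 2162, 2214, 2175 and 1596 CPM in PBS rats of Week 3. Its Week 1 values were 741.9, 785.2, 879.6 and 741.1 CPM in MCT rats and 805.9, 968.2, 2853 and 1854 CPM in PBS rats, which overlap. Its interaction was -2.40 ± 0.38 (adjusted p = 0.0016). Jam2, an adhesion molecule of endothelial junctions, averaged 76.6 and 336.5 CPM in MCT and PBS rats of Week 3 and 221.4 and 253.8 CPM in those of Week 1, with an interaction of -1.94. Clec14a, an endothelial lectin, had -1.79, and Tspan7, a tetraspanin, -1.77. Thbd, the thrombin receptor thrombomodulin, averaged 360.9 and 1037 CPM in MCT and PBS rats of Week 3 and 1052 and 1199 CPM in those of Week 1, with an interaction of -1.33.

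Arterial, BMP and vasoactive genes held fewer calls than the endothelial list. Without the pair their shares of negative genes were near that of all genes with a symbol (1055 of 3275). Of 15 arterial, Notch and ephrin genes (21 listed), 3 had a negative interaction in both fits: Hey2, a Notch effector, at -1.72, Sema3g, an arterial semaphorin, at -1.42, and Efnb2, the arterial ephrin, at -1.11. Without the pair 4 were negative and 1 positive, and 8 were already lower in MCT rats in Week 1 (4.15% of all genes tested). Of 11 genes of the BMP receptor axis (23 listed), Cav1, the caveolar scaffold, was called in both fits at -1.17, and 3 were negative and 1 positive without the pair. Bmpr2, the receptor mutated in heritable pulmonary arterial hypertension, had -0.94 with an adjusted p of 0.449 with all libraries, and -1.70 with an adjusted p of 0.0133 without the pair. It averaged 154.7 and 496.5 CPM in MCT and PBS rats of Week 3 and 268.6 and 449.9 CPM in those of Week 1, the last with an SD of 491.9.

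Of 27 vasoactive genes (35 listed), 7 had a negative interaction with all libraries, and 10 a negative and 1 a positive one without the pair. Xpnpep2, an aminopeptidase that cleaves bradykinin, measured 57.9, 63.0, 67.6 and 67.6 CPM in MCT rats and 188.6, 180.2, 179.6 and 212.5 CPM in PBS rats of Week 3. The values of Week 1 were 199.2, 265.4, 195.4 and 205.1 CPM in MCT rats and 142.5, 156.9, 169.0 and 181.7 CPM in PBS rats. MCT lay below PBS in Week 3 and above PBS in Week 1, without overlap in either week, although the Week 1 effect alone was not called (log2 fold change 0.41, adjusted p = 0.0624). The interaction was -1.98 ± 0.17 (adjusted p = 1.59e-06). Hpgd, which breaks down prostaglandins, had -1.88, Adrb1, the beta-1 adrenergic receptor, -2.06, and Gucy1a1 and Gucy1b1, the subunits of the nitric oxide receptor guanylate cyclase (also listed with smooth muscle), -1.30 and -1.10.

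**Figure D4:**
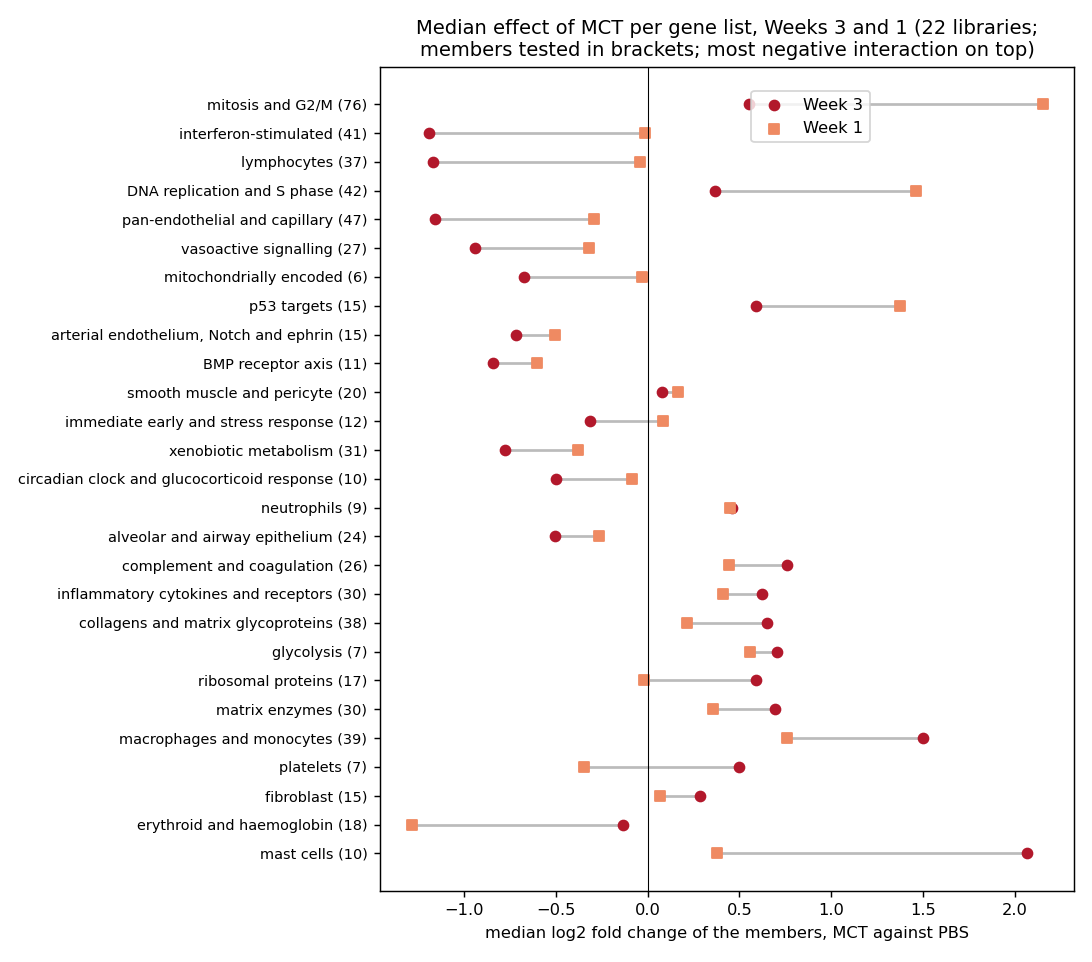
For each of the 27 gene lists, the median log2 fold change of its members for MCT against PBS in Week 3 (circles) and Week 1 (squares), from the fit of 22 libraries, with the number of members tested in brackets. Mitotic genes stand at 0.55 in Week 3 and 2.15 in Week 1, endothelial genes at -1.16 in Week 3 and -0.29 in Week 1, and macrophage genes at 1.501 in Week 3 and 0.76 in Week 1.

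Cyp1a1, a cytochrome P450 that the aryl hydrocarbon receptor induces and that pulmonary endothelium is known to express, had the most negative interaction of the genes named. It measured 13.4, 3.31, 2.38 and 2.23 CPM in the MCT rats of Week 3, against 133.8, 129.0, 234.5 and 195.0 CPM in PBS rats. Week 1 gave 344.7, 144.2, 138.6 and 123.6 CPM in MCT rats, against 188.8, 182.6, 113.9 and 145.3 CPM in PBS rats. All 4 MCT rats of Week 3 lay below the other 12 libraries, and in Week 1 the groups overlapped. The interaction was -5.27 ± 0.93 (adjusted p = 0.00335), and -5.26 without the pair. Cyp26b1, which degrades retinoic acid, averaged 8.97 and 70.1 CPM in MCT and PBS rats of Week 3 and 79.6 and 104.2 CPM in those of Week 1, with an interaction of -2.57. Fmo1, a flavin monooxygenase, had -1.99.

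Of 31 genes of xenobiotic metabolism (34 listed), 5 had a negative and 2 a positive interaction with all libraries, and 6 and 3 without the pair. Hmox1, the heme oxygenase of macrophages and stressed cells, went against the group. It measured 202.5, 220.7, 236.9 and 266.6 CPM in MCT rats and 20.7, 26.9, 24.03 and 41.3 CPM in PBS rats of Week 3, and averaged 70.8 and 45.9 CPM in MCT and PBS rats of Week 1. The interaction was 2.41 ± 0.46 (adjusted p = 0.00485).

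Several mast cell genes had positive interactions, and part of the list lay below PBS in both weeks. Cpa3, a carboxypeptidase stored in mast cell granules, measured 550.7, 233.2, 285.1 and 336.0 CPM in the MCT rats of Week 3, against 12.9, 14.5, 4.08 and 10.04 CPM in PBS rats. In Week 1 it measured 22.7, 7.62, 25.9 and 22.9 CPM in MCT rats, against 32.0, 7.88, 8.38 and 6.54 CPM in PBS rats. The 4 MCT libraries of Week 3 lay above all others, and in Week 1 the groups overlapped. The interaction was 4.54 ± 0.77 (adjusted p = 0.00258), and 3.59 without the pair.

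Mrgprx2, a receptor through which drugs and peptides activate mast cells, averaged 16.1 ± 4.81 and 1.18 ± 0.43 CPM in MCT and PBS rats of Week 3 (SD, n = 4 each) and 1.29 ± 0.54 and 2.32 ± 2.45 CPM in those of Week 1. Fcer1a, the IgE receptor chain, averaged 25.1 and 2.31 CPM in Week 3 and 2.10 and 4.67 CPM in Week 1. Their interactions were 4.59 and 4.58 with all libraries and 2.32 and 2.55 without the pair. Hdc, which makes histamine, had 2.79, a call lost without any 1 of 6 libraries. Of 10 mast cell genes (15 listed), 5 were positive in each fit, 4 of them in both. Without the pair, 8 were higher (16.7% of all genes tested) and 2 lower (15.7%) in MCT rats in Week 3, and 2 were lower in Week 1 (4.15%). The 2 were Kit, the receptor of stem cell factor, with MCT over PBS at -1.25 (log2) for Week 3 and -1.33 for Week 1, and Gata2, a transcription factor also of endothelium, at -0.95 and -1.40. The list summed to 648.9 to 1079 CPM in MCT and 536 to 580.9 CPM in PBS libraries of Week 3, and to 265.6 to 291.1 CPM in MCT and 389.8 to 623 CPM in PBS libraries of Week 1. Each count of positive genes was 3 without a further library, MCT replicate 2 of Week 1 with all libraries and PBS replicate 2 of Week 1 without the pair, and limma-voom with sample quality weights called none in either fit.

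Macrophage and monocyte genes were the largest group with positive interactions. Of 39 tested (46 listed), 9 were positive with all libraries and 17 without the pair, and none was negative, at medians of 1.04 and 0.63. In the fit of 22 libraries 35 were higher (16.7% of all genes tested) and 1 lower (15.7%) in MCT rats in Week 3. In Week 1, 13 were higher (5.46%) and 1 lower (4.15%), while 29 rose between the weeks among MCT rats (10.9%). The list summed to 12060 to 15740 CPM in MCT and 3366 to 4413 CPM in PBS libraries of Week 3, and to 4251 to 7151 CPM in MCT and 3071 to 7284 CPM in PBS libraries of Week 1. With all libraries 4 were positive without MCT replicate 2 and 21 without PBS replicate 3 of Week 1, and without the pair 9 when PBS replicate 2 was left out too. Ctsk, the collagen-cleaving cathepsin K, measured 108.1, 41.6, 40.4 and 80.7 CPM in MCT rats and 5.97, 8.06, 1.77 and 4.69 CPM in PBS rats of Week 3. Its Week 1 values were 13.3, 11.3, 12.6 and 11.2 CPM in MCT rats and 19.9, 15.2, 1.95 and 10.4 CPM in PBS rats, which overlap. Its interaction was 3.69 ± 0.69 (adjusted p = 0.00441).

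Stab1, a scavenger receptor of alternatively activated macrophages and of some endothelium, measured 170.4, 184.8, 179.1 and 228.7 CPM in MCT rats and 41.5, 45.5, 37.1 and 40.3 CPM in PBS rats of Week 3. In Week 1 it averaged 58.1 CPM in MCT rats and 50.0 CPM in PBS rats, with overlapping values, and its interaction was 2.00 (adjusted p = 0.00441). Arg1, the arginase of alternatively activated macrophages, had 2.15, Clec10a, a lectin of the same cells, 2.10, and Apoe, the lipid carrier, 3.15, a call lost without any 1 of 6 libraries. Apoe reached 1069 CPM in PBS replicate 1 of Week 1 and 27.3 CPM in replicate 3.

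Secreted factors split. Of 26 complement and coagulation genes (36 listed), 2 were positive and 1 negative with all libraries, and 5 and 3 without the pair. Cfd, the complement protease factor D, averaged 24.7 and 5.16 CPM in MCT and PBS rats of Week 3 and 5.06 and 11.5 CPM in those of Week 1, with an interaction of 3.44. Of 30 inflammatory genes (39 listed), 4 were positive and 4 negative with all libraries, and 6 and 8 without the pair. Without the pair, the counts of both lists were near or below the shares of all genes with a symbol (480 positive and 1055 negative of 3275). Ccl21, a chemokine that draws lymphocytes and dendritic cells, had an interaction of 2.64 and Socs3, a feedback inhibitor of cytokine receptors, of 2.50, while Il33, an alarmin of endothelial and alveolar cells, had -1.92 and Casp1, the inflammasome protease, -1.62. The call of Ccl21 was lost without any 1 of 8 libraries. The positive inflammatory count with all libraries was 1 without MCT replicate 2 and 8 without PBS replicate 3 of Week 1, and without that PBS library 6 complement and coagulation genes were positive and 4 negative.

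Matrix genes were mostly higher in MCT rats in Week 3, and few changed their effect beyond the test with all libraries. Of 38 identifiers of collagens and matrix glycoproteins (37 symbols of 54 listed), 1 was positive (Thbs2, thrombospondin 2, at 2.33) and 1 negative (Fbln2, fibulin 2, at -1.84) with all libraries, and 12 and 2 without the pair. In that second fit 21 were higher (16.7% of all genes tested) and 5 lower (15.7%) in MCT rats in Week 3. Col1a1, the main fibrillar collagen chain, averaged 1249 and 488.4 CPM in MCT and PBS rats of Week 3 and 1082 and 671.9 CPM in those of Week 1, with an interaction of 0.67 (adjusted p = 0.39) and of 1.15 (adjusted p = 0.0232) without the pair. Of 30 matrix enzymes (38 listed), 7 were positive and 1 negative with all libraries, and 9 and 2 without the pair. Timp1, an inhibitor of matrix proteases, had 1.53 and P4ha3, a collagen prolyl hydroxylase, 1.65. The calls of Timp1 and Fbln2 were each lost without any 1 of 10 libraries, and the interaction of Timp1 was 0.95 without the pair. With all libraries, the positive collagen and glycoprotein count was 0 without MCT replicate 2 and 9 without PBS replicate 3 of Week 1, and the matrix enzyme count was 4 and 9. Without the pair, the positive collagen and glycoprotein count was 0 when PBS replicate 2 of Week 1 was left out too and 17 when PBS replicate 4 was.

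Interferon-stimulated genes had negative interactions of another make-up. Of 41 tested (42 listed), 8 were negative with all libraries and 20 without the pair, and none was positive, at medians of -1.07 and -1.33. Without the pair, 38 were lower (15.7% of all genes tested) and 2 higher (16.7%) in MCT than in PBS rats in Week 3, and 1 each in Week 1. With all libraries the count was 25 without PBS replicate 3 of Week 1, and without the pair it was 6 when PBS replicate 2 was left out too. Here the PBS rats changed: 23 of 41 rose between Week 1 and Week 3 among PBS rats (5.95% of all genes tested) at a median of 1.08. Among MCT rats 7 fell (13.4%) and 2 rose (10.9%) at a median of -0.07. Only 4 of the 41 changed more in MCT than in PBS rats, against 75 of 76 mitotic genes. The list summed to 2199 to 3333 CPM in MCT and 3120 to 8329 CPM in PBS libraries of Week 3, and to 2625 to 3066 CPM in MCT and 2342 to 3864 CPM in PBS libraries of Week 1. The PBS rats of Week 3 thus spanned a wide range, the lowest of them within the range of the other groups.

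**Figure D5:**
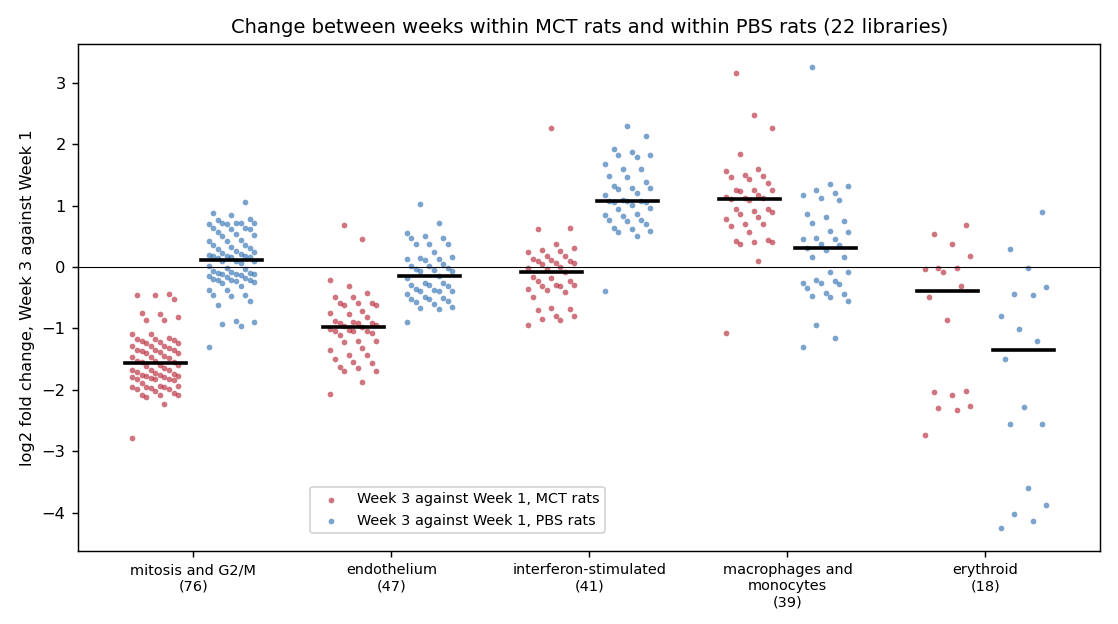
Each point is 1 gene of a list, with its log2 fold change of Week 3 against Week 1 among MCT rats (red, left) and among PBS rats (blue, right), from the fit of 22 libraries, and bars are medians. Mitotic and endothelial genes have medians of -1.57 and -0.97 in MCT rats and of 0.12 and -0.14 in PBS rats, and interferon-stimulated genes of -0.07 in MCT rats and 1.08 in PBS rats.

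Ifi44l, an interferon-induced protein, measured 15.1, 8.13, 15.3 and 12.6 CPM in MCT rats and 43.5, 73.5, 73.5 and 85.3 CPM in PBS rats of Week 3. The values of Week 1 were 19.8, 17.7, 22.8 and 28.6 CPM in MCT rats and 30.2, 23.0, 53.5 and 34.3 CPM in PBS rats. The groups were apart in Week 3 and overlapped in Week 1, and the interaction was -1.77 ± 0.37 (adjusted p = 0.00871). Xaf1, an interferon-induced proapoptotic factor, had -1.90, Gbp5, a guanylate-binding protein, -1.72, and Ifi44 -1.56.

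Slfn4, a schlafen gene of mouse myeloid cells that interferon induces, averaged 175.7 and 969.6 CPM in MCT and PBS rats of Week 3 and 169.8 and 141.1 CPM in those of Week 1. Its PBS values of Week 3 ran from 349.7 to 1659 CPM and one of them lay below the highest MCT value. The interaction of -2.73 (adjusted p = 0.0387) was lost without any 1 of 10 libraries.

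Lymphocyte genes were mostly lower in MCT rats in Week 3. Of 37 tested (43 listed), 7 were negative with all libraries and 18 without the pair, and none was positive. In the fit of 22 libraries 24 were lower (15.7% of all genes tested) and 2 higher (16.7%) in MCT rats in Week 3, and 3 lower (4.15%) and 4 higher (5.46%) in Week 1. Between the weeks 6 fell (13.4%) and 1 rose among MCT rats, and 9 rose among PBS rats (5.95%). Gzma, a granzyme of cytotoxic cells, measured 1.33, 1.93, 4.92 and 1.13 CPM in MCT rats and 38.3, 11.4, 22.5 and 49.6 CPM in PBS rats of Week 3, and averaged 4.92 and 12.3 CPM in MCT and PBS rats of Week 1. Its interaction was -2.39 (adjusted p = 0.0483), a call that was lost without any 1 of 12 libraries. Klrd1, a receptor of natural killer cells, had -2.31, Tbx21, the transcription factor T-bet, -1.97, and Prf1, perforin, -1.75. The call of Tbx21 was lost without any 1 of 10 libraries and that of Prf1 without any 1 of 11. The count with all libraries was 1 without MCT replicate 2 and 17 without PBS replicate 3 of Week 1, and it was 4 under RLE scaling. Without the pair it was 0 when PBS replicate 2 of Week 1 was left out too.

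Summed erythroid genes were highest in the PBS rats of Week 1. Of 18 erythroid genes (22 listed), 3 were positive with all libraries, and 5 positive and 1 negative without the pair. Without the pair the positive count was 1 when PBS replicate 2 of Week 1 was left out too and 9 without PBS replicate 2 of Week 3. In Week 3 none was higher and 4 were lower (15.7% of all genes tested) in MCT rats in the fit of 22 libraries. Between the weeks 9 of 18 fell among MCT rats (13.4%) and 12 among PBS rats (7.16%). The list summed to 329.3 to 715.1 CPM in MCT and 385 to 1184 CPM in PBS libraries of Week 3, and to 781.1 to 2654 CPM in MCT and 5117 to 12210 CPM in PBS libraries of Week 1. Ahsp, the chaperone of alpha-haemoglobin, measured 36.3, 8.59, 32.4 and 6.13 CPM in PBS rats of Week 1 and at most 4.01 CPM in the other 12 libraries, with an interaction of 3.79, and 2.25 without the pair. Ank1, the ankyrin of the red cell membrane, had 2.52, and 1.48 without the pair. Bpgm, a red cell enzyme, had 1.09, and 0.72 without the pair, a call lost without any 1 of 4 libraries.

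Pf4, platelet factor 4, measured 29.4, 26.4, 23.2 and 33.7 CPM in MCT rats and 9.58, 7.27, 3.98 and 5.04 CPM in PBS rats of Week 3. Week 1 gave 19.1, 11.2, 11.5 and 12.0 CPM in MCT rats and 100.2, 39.8, 15.9 and 17.7 CPM in PBS rats. MCT lay above PBS in Week 3, and the groups overlapped in Week 1. The interaction was 3.81 ± 0.62 (adjusted p = 0.00213), and 3.19 without the pair, where MCT over PBS stood at 2.12 (log2) for Week 3 and -1.07 for Week 1 (adjusted p = 0.0515). Of 7 platelet genes (12 listed), Pf4 and Alox12, a platelet lipoxygenase at 1.20, were positive in both fits, and the call of Alox12 with all libraries was lost without any 1 of 8. The part of residual blood in these values was not tested.

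The positive genes named by size included 3 more with high values in PBS libraries of Week 1, and in each the MCT libraries of Week 3 lay above the PBS ones of that week without overlap. Rpl8, a ribosomal protein (the identifier ENSRNOG00000048456, 1 of 2 with this symbol), measured 44.0, 81.3, 14.4 and 6.35 CPM in PBS rats of Week 1 and 3.20 to 11.4 CPM in the other 12 libraries, with an interaction of 3.94, and 4.16 without the pair. Naa38, a subunit of an N-terminal acetyltransferase, reached 82.9 CPM in PBS replicate 1 of Week 1 and 3.99 to 15.1 CPM in the other 3, with an interaction of 3.78, and 2.36 without the pair. In Week 3 it measured 4.76 to 13.7 CPM in MCT rats and 2.73 to 4.05 CPM in PBS rats. Cops9, a subunit of the COP9 signalosome, reached 260.8 CPM in the same library and 2.34 CPM in replicate 3, with an interaction of 3.71 that was lost (adjusted p at or above the threshold) without any 1 of 12 libraries. Without the pair it was 1.88, and in Week 3 Cops9 measured 9.92 to 20.2 CPM in MCT rats and 4.58 to 8.07 CPM in PBS rats. Of 17 ribosomal protein identifiers, 1 was positive with all libraries, and 3 were positive and 2 negative without the pair, while 12 were positive without PBS replicate 3 of Week 1 alone and none without the pair and PBS replicate 2 of Week 1.

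Among the other genes with the most negative interactions, Scml2, a polycomb protein, averaged 3.26 and 4.74 CPM in MCT and PBS rats of Week 3 and 11.5 and 2.25 CPM in those of Week 1, with an interaction of -2.88. Cytl1, a secreted cytokine-like protein, averaged 3.65 and 30.1 CPM in Week 3 and 45.2 and 55.5 CPM in Week 1, with -2.74. LOC690836 had -3.81 and LOC100909911 -2.64.

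The remaining lists held few calls with all libraries, and more in part of them without the pair. In that fit 22.8% of all genes tested were called, and 480 positive and 1055 negative of the 3275 genes with a symbol. All of these lists but the fibroblast one held a smaller share of calls than the genes with a symbol. Of 24 alveolar and airway epithelial genes (38 listed), 1 was positive and 1 negative (Aldh1a1, a retinaldehyde dehydrogenase, at -1.09, lost without any 1 of 11 libraries) with all libraries, and 1 and 4 without the pair. Of 20 smooth muscle and pericyte genes (31 listed), 1 was positive and 2 negative, and 4 and 4 without the pair, with Fhl2, a LIM protein, at 2.32. No fibroblast gene of 15 (24 listed) was called with all libraries, and 6 were positive and 3 negative without the pair. When PBS replicate 2 of Week 1 was left out too, the positive count was 0 in both the smooth muscle and the fibroblast list. With all libraries, 7 smooth muscle and 4 fibroblast genes were positive without PBS replicate 3 of Week 1. No neutrophil gene of 9 (14 listed) was called in either fit, and no mitochondrially encoded gene of 6 (13 listed). No glycolysis gene of 7 (17 listed) was called with all libraries, and Hk3, a hexokinase of blood cells, was positive without the pair. Of 12 immediate early and stress genes (23 listed), 1 was positive and 3 were negative, and 1 and 4 without the pair: Hspa1l, a heat shock protein at 0.442 to 2.85 CPM on average, had 3.75, and Klf4 and Klf10, Krueppel-like factors, -1.22 and -1.27, beside Chordc1, a partner of heat shock protein 90, at -1.25. The call of Klf4 was lost without any 1 of 10 libraries and that of Chordc1 without any 1 of 9. No clock gene of 10 (19 listed) was called with all libraries, and Clock and Nr1d2 were negative without the pair.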

How the data were processed

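The authors aligned the cleaned reads to the rat genome (Rnor_6.0) with HISAT2 2.0.5 and counted them per gene with featureCounts 2.0.3; the deposited values are raw counts for 32883 genes, with no normalization. Strand setting and multi-mapping treatment are not given in the sources used here, so overlapping genes and near-identical copies may share reads. All 24 libraries, or 22 without PBS replicates 1 and 3 of Week 1, were fitted in edgeR 4.0.16 (R 4.3.3) with 6 group means: filterByExpr, TMM scaling, quasi-likelihood test, Benjamini-Hochberg adjustment over all genes tested, calls at an adjusted p under 0.05. The Week 2 libraries enter the filter, the scaling and the spread, but not the contrasts. Every adjusted p in the text comes from this test. CPM are counts scaled to the TMM-adjusted library size, from the fit of 24 libraries, and errors beside log2 values are standard errors. Effects of a week and changes within a treatment are contrasts of the same fits.

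Symbols come from a shortened copy of the study's table of changed genes, which pairs 3275 identifiers with a symbol; 163 of the 322 positive and 329 of the 432 negative genes have one. Genes named by size have a symbol, at least 5 CPM in the highest of the 4 groups and calls of the same sign in both fits (10 per direction), and 3 more per pattern (effect grew, shrank or changed sign) have the smallest p without the pair. Up to 4 members called in both fits, then without the pair, are named per list; 1 gene that meets this rule is not reported here, though it stays in the counts. The members, the 27 lists and the rules were chosen with earlier results of these data known. Of 24 pairs of libraries within a group none was identical. The labels name separate samples, and no sequencing batch. Promoter sequences and their coordinates are RefSeq's (GRCr8), a different build from the counts. Alternatives were RLE scaling, no filter, a minimum of 10 counts throughout, limma-voom 3.58.1 with sample quality weights, DESeq2 1.42.0, a robust dispersion, the libraries of the 4 groups only, replicate blocks, other thresholds, and leaving out each library. The method was tested on simulated data.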

Additional observations from a re-analysis of the deposited data

Results flagged for a closer look

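The MCT effect differed between Week 3 and Week 1, by the test of the interaction itself, for 322 genes with a positive and 432 with a negative value with all libraries. Positive log2 interactions were Mrgprx2 4.59, Fcer1a 4.58, Cpa3 4.54, Rpl8 3.94, Pf4 3.81, Ahsp 3.79, Naa38 3.78, Cops9 3.71, Ctsk 3.69, Cfd 3.44, Stab1 2.00, Apoe 3.15, Arg1 2.15 and Clec10a 2.10. Further positive log2 interactions were Ccl21 2.64, Socs3 2.50, Timp1 1.53, Thbs2 2.33, P4ha3 1.65, Fhl2 2.32, Hdc 2.79, Ank1 2.52, Bpgm 1.09, Alox12 1.20, Hmox1 2.41 and Hspa1l 3.75. Negative log2 interactions were Cyp1a1 -5.27, LOC690836 -3.81, Scml2 -2.88, Cytl1 -2.74, Slfn4 -2.73, Depdc1 -2.71, LOC100909911 -2.64, Cyp26b1 -2.57, Tek -2.55, Spc25 -2.53, Calcrl -2.40, Jam2 -1.94, Prc1 -1.27, Top2a -1.62 and Xpnpep2 -1.98. Further negative log2 interactions were Plk4 -1.99, Ndc80 -2.23, Sgo2 -2.41, Pclaf -2.44, Ccne2 -1.71, Gmnn -1.70, Uhrf1 -1.95, Fas -1.23, Mdm2 -1.22, Clec14a -1.79, Tspan7 -1.77, Thbd -1.33, Cav1 -1.17, Hey2 -1.72 and Sema3g -1.42. Further negative log2 interactions were Efnb2 -1.11, Hpgd -1.88, Adrb1 -2.06, Gucy1a1 -1.30, Gucy1b1 -1.10, Il33 -1.92, Casp1 -1.62, Fbln2 -1.84, Aldh1a1 -1.09, Gzma -2.39, Klrd1 -2.31, Prf1 -1.75, Tbx21 -1.97, Xaf1 -1.90 and Ifi44l -1.77. Further negative log2 interactions were Gbp5 -1.72, Ifi44 -1.56, Fmo1 -1.99, Chordc1 -1.25, Klf10 -1.27 and Klf4 -1.22.

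One library stood apart from the other 3 of its group, by Dixon's criterion, in 14 of 128 groups of 4 examined. Chance alone marks about 1 in 20 groups of unselected values. Most groups here are of genes named for their interaction in these same values, so that rate cannot be set against this count. In the PBS rats of Week 1 the libraries that stood apart were replicate 1 for Cpa3 (32.01 CPM), Naa38 (82.89 CPM) and Cops9 (260.8 CPM), and replicate 3 for Cenpe (29.37 CPM) and Top2a (114.3 CPM). In the MCT rats of Week 1 they were replicate 1 for Pf4 (19.08 CPM) and Cyp1a1 (344.7 CPM), and replicate 2 for LOC690836 (9.421 CPM), Xpnpep2 (265.4 CPM) and the total count (29207063). In the MCT rats of Week 3 they were replicate 1 for Cyp1a1 (13.41 CPM) and replicate 4 for Cenpe (14.76 CPM), and in the PBS rats of Week 3 replicate 1 for Fcer1a (2.78 CPM) and replicate 4 for Calcrl (1596 CPM).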

How the results depend on the processing

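The counts of calls moved with the libraries and the tool. With all libraries, the 322 positive and 432 negative calls became 660 and 457 with at least 10 counts in every library, 1030 and 734 with DESeq2, 440 and 929 with limma-voom with sample quality weights, 45 and 102 with the libraries of the 4 groups only, 1845 and 2241 without PBS replicates 1 and 3 of Week 1, and 1772 and 1829 at an unadjusted p under 0.05. Without the 2 shallow libraries, the 1845 and 2241 calls became 430 and 834 with limma-voom, 1066 and 1121 with the libraries of the 4 groups only, and 3053 and 3446 at an unadjusted p. Leaving out 1 library gave 104 to 2419 positive and 214 to 2336 negative genes in the first fit and 322 to 2850 and 518 to 3121 in the second. MCT against PBS gave 596 genes in Week 1, 1723 without the pair, 14 with that week alone and 338 with that week alone without the pair, and in Week 3 2047, 5815 without the pair and 5062 with that week alone. Same-numbered MCT and PBS libraries deviated together at correlations of -0.0283 to 0.0514 in Week 3 and -0.122 to 0.268 in Week 1, so numbers were not taken as pairs. A replicate block gave 210 positive and 334 negative genes with all libraries and 1294 and 1692 without the pair, and a replicate block within week 80 and 175, and 375 and 617. Of the named genes called, 57 of 78 kept their call with every single library left out with all libraries, and 55 of 103 without the pair, where 47 were lost without PBS replicate 2 of Week 1. Fewer kept it under every alternative, 34 of 78 with all libraries and 49 of 103 without the pair. With all libraries, 38 lost it with the libraries of the 4 groups only, 27 with a replicate block within week and 16 with limma-voom. Without the pair, these losses were 19, 29 and 33. No called interaction of a named gene changed sign under these alternatives. The genes were named for calls in the same libraries, so a stable sign is not independent evidence. The fit without the pair rests on 2 PBS libraries in Week 1, and depth limits genes of low counts in the shallow pair most. The pair also differed from the other libraries in mitochondrial share and in spread, and the part of each in the calls was not tested.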
